A study of Homo sapiens with 24 samples.

Results

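The genes described are 7 markers of neuroectoderm and of the primed epiblast: POU3F1, SIX3, PAX6, OTX2, SOX3 and ZIC2, which encode transcription factors, and DCX, which encodes a microtubule-associated protein of young neurons and is not a transcription factor. They were chosen by symbol, and all 7 of the 7 were found among the 57820 genes of the table and among the 19835 genes with enough reads to be tested. The cells were HUES6, an established human embryonic stem cell line, sampled at 0, 3, 6 and 48 h of mesoderm induction with 1.5 ng/ml BMP4 and 1.5 µM CHIR, the usual short name of a GSK3 inhibitor that switches on WNT signalling. Cells labelled RBPMS KO (KO), a knockout of a gene for an RNA-binding protein, were set against cells labelled WT, each with 3 libraries at each hour and 24 in all. The 0 h cells of both genotypes carried the label control and had received no induction. The labels do not give the number of KO clones, the guide or the edited allele, nor whether the 3 libraries at an hour are separate cultures, so p-values measure only the spread between these samples.

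Human embryonic stem cells resemble the epiblast shortly before gastrulation, when its cells can still become ectoderm, mesoderm or endoderm. BMP and WNT signals drive such cells towards mesoderm, whereas their absence favours neural ectoderm. OTX2, ZIC2, SOX3 and POU3F1 (also called OCT6) are used both in the epiblast and in the neural plate that forms from it, SIX3 and PAX6 belong to the anterior neural plate and eye field, and DCX appears later, in migrating neurons. OTX2 also works in anterior mesendoderm, so it is not a marker of one lineage.

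Library sizes ran from 29896358 to 50451908 reads. Values are CPM, reads scaled to the library total and not divided by gene length, and 3 reads, the limit that a count of 0 allows for counting error only, correspond to 0.0595 to 0.1003 CPM. RBPMS mRNA stood at 152.98 to 157.63 CPM in KO and 121.37 to 154.63 CPM in WT at 0 h, and at 80.62 to 92.47 CPM in KO and 95.43 to 103.67 CPM in WT at 48 h, so its level does not check the KO label. KO and WT therefore name libraries as labelled throughout. For the stem cell label, 8 of 8 stem cell markers were at 1 CPM or more in every group, a low limit that does not show the state at 48 h. Between 0 and 48 h their log2 changes ran from -3.94 (PODXL) to -0.40 (POU5F1) in WT. In KO they ran from -2.78 (PODXL) to 0.27 (L1TD1). Of 6 neural progenitor markers, FABP7 was at 5.65 to 20.9 CPM as a group mean and HES5 passed 1 CPM at 3 h. SOX1, LHX2 and RAX were near 0 in every group, at no more than 0.205, 0.210 and 0.145 CPM as group means. The summed level of the 6 at 48 h, most of it FABP7, was 19.6 to 22.9 CPM in KO and 13.4 to 19.5 CPM in WT. FABP7 itself did not pass the test between KO and WT at that hour (0.41 ± 0.21, adjusted p = 0.241, limma). The part of these 6 markers in the results was not tested. A total of 3 libraries stood apart from their group: WT 0 h library 1 (r of 0.975 to 0.978 with the other two), KO 3 h library 3 (0.988 to 0.989) and WT 48 h library 3 (0.991), and results that turn on them are given without them. In bulk RNA, fewer cells of a type and less RNA per cell cannot be told apart.

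The 7 genes lie on 6 chromosomes, with coordinates from GENCODE 29 (GRCh38): POU3F1 at chr1:38044611-38046794 (minus strand), SIX3 at chr2:44941898-44946077 (plus), PAX6 at chr11:31784779-31818062 (minus), ZIC2 at chr13:99981772-99986773 (plus), OTX2 at chr14:56799905-56810479 (minus), DCX at chrX:111293779-111412429 (minus) and SOX3 at chrX:140502985-140505116 (minus). RefSeq promoter windows (GRCh38.p14, 250 bases before to 50 after a start) were found for 6 of the 7 genes. SIX3 was not matched. The promoters of the 4 epiblast factors are printed because these genes took different courses through the induction described below, and their windows also differ in base composition. Capitals mark CCAAT or its reverse complement ATTGG, the CCAAT box, which was added to the search after the sequences were seen. The POU3F1 window is chr1:38046744-38047043 (minus strand), the SOX3 window chrX:140505020-140505319 (minus), the first of 2 OTX2 windows chr14:56810430-56810729 (minus) and the ZIC2 window chr13:99981534-99981833 (plus).
POU3F1: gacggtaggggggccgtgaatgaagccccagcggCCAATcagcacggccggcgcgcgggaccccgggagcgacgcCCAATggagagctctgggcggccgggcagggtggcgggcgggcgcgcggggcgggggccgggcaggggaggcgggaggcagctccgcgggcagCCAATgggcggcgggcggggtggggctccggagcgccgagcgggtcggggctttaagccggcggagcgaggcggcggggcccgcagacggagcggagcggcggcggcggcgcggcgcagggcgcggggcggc
SOX3: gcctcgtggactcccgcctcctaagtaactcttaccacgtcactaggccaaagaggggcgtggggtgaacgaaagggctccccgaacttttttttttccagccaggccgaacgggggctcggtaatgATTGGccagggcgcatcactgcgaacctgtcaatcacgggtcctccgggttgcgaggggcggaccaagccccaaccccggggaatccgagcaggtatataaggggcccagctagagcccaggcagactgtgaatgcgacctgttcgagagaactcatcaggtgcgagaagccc
OTX2: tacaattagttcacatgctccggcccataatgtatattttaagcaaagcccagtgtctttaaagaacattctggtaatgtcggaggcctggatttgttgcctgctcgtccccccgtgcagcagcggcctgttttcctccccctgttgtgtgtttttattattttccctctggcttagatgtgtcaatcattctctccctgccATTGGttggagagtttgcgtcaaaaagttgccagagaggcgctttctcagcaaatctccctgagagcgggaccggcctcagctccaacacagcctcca
ZIC2: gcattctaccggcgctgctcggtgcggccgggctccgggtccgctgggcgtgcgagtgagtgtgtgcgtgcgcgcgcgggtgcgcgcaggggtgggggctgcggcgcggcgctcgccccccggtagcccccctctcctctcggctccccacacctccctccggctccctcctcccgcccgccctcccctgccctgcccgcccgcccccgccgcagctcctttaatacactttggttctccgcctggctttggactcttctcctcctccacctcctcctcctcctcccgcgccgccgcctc

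G and C made up 82.3% of the POU3F1 window and 75.0% of the ZIC2 window, against 60.3% for SOX3 and 49.7% for the OTX2 window printed. The median of all 35116 promoter windows was 58.7%. The POU3F1 window held 3 CCAAT boxes, the SOX3 and OTX2 windows 1 each and the ZIC2 window none, and 34.6% of all windows held at least 1. Searches on both strands for CTTTGAT (TCF/LEF), ATGCAAAT (octamer), GGCGCC (GC-rich SMAD) and TAATCC (bicoid-type homeodomain) found a single match in the windows of the 6 genes, a TAATCC 19 bases before a start of DCX. These motifs were present in 2.62%, 1.77%, 19.2% and 6.36% of all windows, in the order given. The core letters of the TATA box, searched only as TATAAA, were present in 11.5% of all windows. They matched once, from base 61 of another DCX window, far before the start. The SOX3 window holds the similar letters TATATAAG close before its start, which this search could not match. Whether SOX3 has a TATA box was thus not tested. A match is a description of letters and not a bound site.

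After 48 h of induction, 4 of the 7 genes were higher in KO than in WT: POU3F1 by 3.504-fold, SIX3 by 4.49-fold, DCX by 1.71-fold and OTX2 by 1.45-fold in mean CPM. The other 3, SOX3, ZIC2 and PAX6, did not pass the test. A call means an adjusted p under 0.05 in limma, with Benjamini-Hochberg adjustment over all tested genes, which called 11.9% of all genes at this hour. For each of the 4 called genes the 3 KO libraries lay above the 3 WT libraries, which describes the called values and is not a second test.

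POU3F1, a POU-domain factor of primed epiblast and early neural cells, had 3.507, 3.504 and 3.176 CPM in the KO libraries at 48 h, against 1.22, 0.8004 and 0.886 CPM in the WT libraries. The groups were far apart, the lowest KO library lying well above the highest WT library. The log2 change was 1.60 ± 0.17 (SE; adjusted p = 7.28e-07, limma, n = 3 libraries per group). Per library this rested on 132 to 172 reads in KO and 31 to 49 reads in WT.

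SIX3, a homeodomain factor of the forebrain and eye field, was close to silent in all libraries before 48 h. At 48 h it had 0.957, 1.20 and 1.85 CPM in KO, against 0.199, 0.284 and 0.409 CPM in WT. The groups did not overlap, although the level stayed low: 177 reads in the KO libraries together and 37 in the WT libraries together. The log2 change was 1.50 ± 0.18 (adjusted p = 3.39e-06, limma), a value that the pseudocount of 0.25 CPM holds below the ratio of the means.

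DCX, which stabilises microtubules in migrating neurons, had 46.2, 44.1 and 44.0 CPM in KO cells and 27.7, 27.9 and 23.05 CPM in WT cells at 48 h. The KO libraries lay within a narrow band above all WT libraries, with a log2 change of 0.79 ± 0.11 (adjusted p = 2.44e-05, limma). OTX2, a homeodomain factor of epiblast, forebrain and anterior mesendoderm, had 169.6, 155.3 and 179.5 CPM in KO cells and 114.9, 129.3 and 103.5 CPM in WT cells. Again no WT library reached the lowest KO library, and the log2 change was 0.56 ± 0.14 (adjusted p = 0.00845, limma). Each of these 4 calls at 48 h kept its direction and its side of the threshold under every alternative run on it.

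SOX3, a SOXB1 factor of neural progenitors and epiblast, had 1.59, 1.73 and 2.14 CPM in KO cells and 2.14, 2.56 and 3.46 CPM in WT cells at 48 h. The highest KO library was barely below the lowest WT library, and the log2 change of -0.48 ± 0.17 did not pass (adjusted p = 0.0718, limma). It passed with CPM as deposited (0.0493), DESeq2 (0.0380), array weights (0.0162) and without WT 48 h library 1 (0.0246). ZIC2, a zinc finger factor of epiblast and dorsal neural tube, had 180.1, 165.6 and 181.2 CPM in KO cells and 191.1, 186.7 and 141.8 CPM in WT cells at 48 h. The groups overlapped, with a log2 change of 0.05 ± 0.26 (adjusted p = 0.940, limma). PAX6, a paired-box factor of the eye field and neural progenitors, had 2 reads in the KO libraries together and 0 in the WT libraries at 48 h, both under the floor of 3 reads per library.

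**Figure D1:**
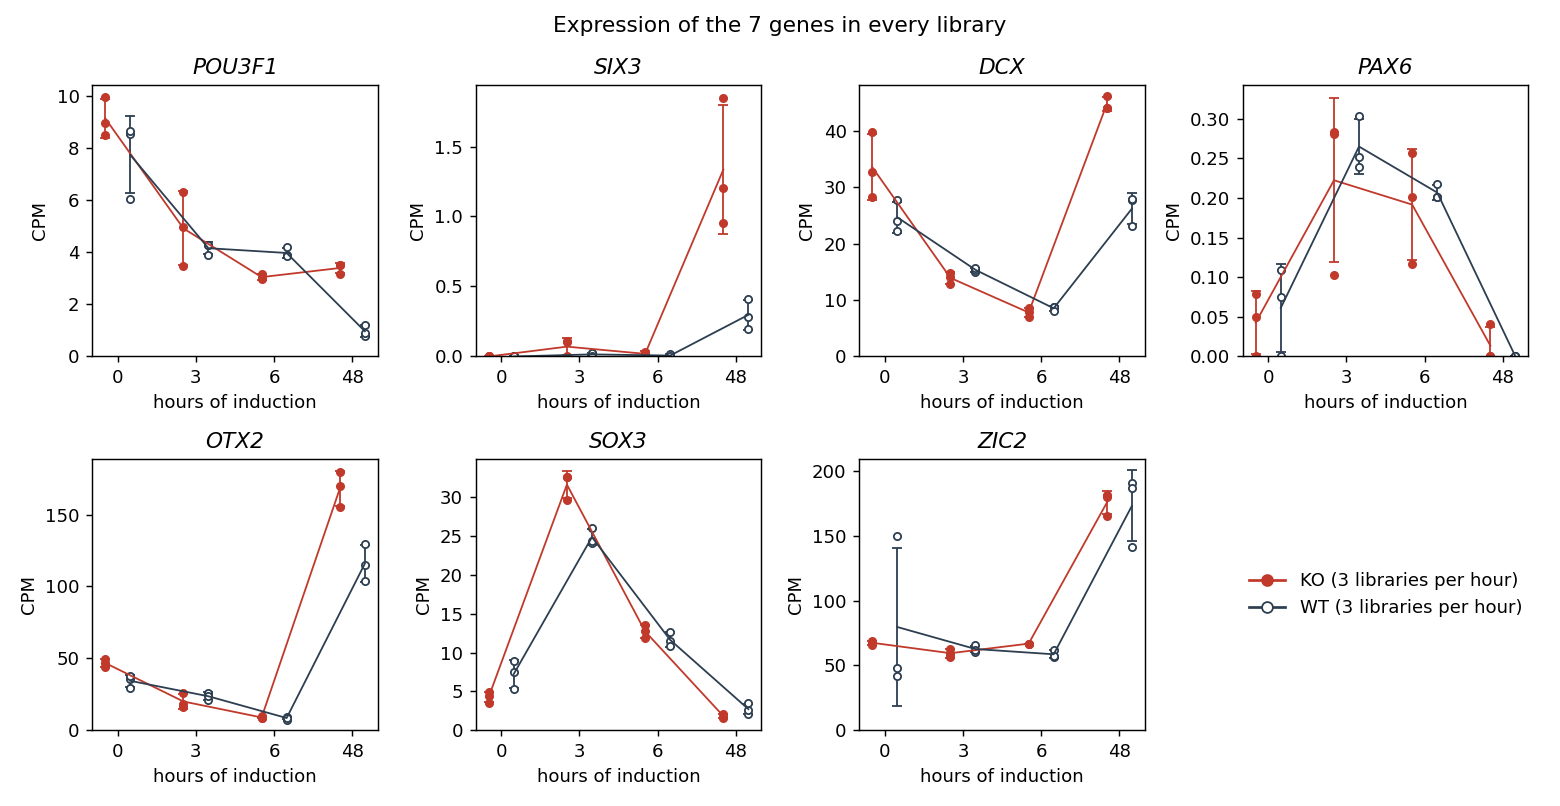
CPM of each gene (y axis, linear, own scale per panel) by hours of induction (x axis, evenly spaced) in KO (filled red) and WT (open dark); points are libraries, lines join means and bars are SD of 3 libraries. POU3F1, SIX3, DCX and OTX2 separate at 48 h with KO above WT, and WT 0 h library 1 stands out for ZIC2 at 149.6 CPM.

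Before induction, at 0 h, 3 of the 7 genes differed between KO and WT, where 15.3% of all genes were called. DCX and OTX2 were higher in KO and SOX3 was lower. DCX had 39.7, 32.7 and 28.3 CPM in KO cells and 24.05, 22.3 and 27.7 CPM in WT cells (log2 change 0.49 ± 0.11, adjusted p = 0.00493, limma). OTX2 had 47.0, 49.3 and 44.1 CPM in KO cells and 29.6, 35.7 and 38.0 CPM in WT cells (0.50 ± 0.14, adjusted p = 0.0175, limma). SOX3 had 3.54, 4.37 and 4.93 CPM in KO cells and 8.86, 7.52 and 5.33 CPM in WT cells (-0.66 ± 0.17, adjusted p = 0.0123, limma). The libraries of KO and WT did not overlap for any of these 3 genes, which describes genes already called and is not further support.

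The 0 h calls were less firm than those at 48 h. All 3 were lost when only the 2 groups compared entered the fit (adjusted p of 0.165 for DCX, 0.0950 for OTX2 and 0.1797 for SOX3, limma), at little changed sizes. OTX2 was also lost without the filter on low counts (0.0566) and without WT 0 h library 1 (0.0655), KO 0 h library 1 (0.0552) or KO 0 h library 2 (0.0731). SOX3 was also lost without WT 0 h library 2 (0.0531) or KO 0 h library 1 (0.0803).

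The remaining genes showed no call at 0 h. POU3F1 had 8.50, 9.96 and 8.97 CPM in KO cells and 8.52, 8.66 and 6.04 CPM in WT cells (0.30 ± 0.17, adjusted p = 0.263, limma), with overlapping groups. SIX3 had 0 reads in all 6 libraries, and PAX6 had 5 reads in the KO libraries together and 7 in the WT libraries together.

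ZIC2 at 0 h turned on a single library. It had 65.85, 67.7 and 68.9 CPM in KO, a tight group, against 149.6, 47.8 and 41.7 CPM in WT, where library 1 was far above its mates. With all libraries the log2 change was 0.07 ± 0.26 (adjusted p = 0.899, limma), and without WT 0 h library 1 it was 0.62 (adjusted p = 3.80e-05, limma). In that library the adjacent family member ZIC5 stood at 76.8 CPM, against 40.1 and 37.9 CPM in its mates. Its summed fibroblast markers stood at 816.3 CPM, against 414.3 and 411.0 CPM in its mates, and its summed trophoblast and amnion markers at 73.0 CPM, against 18.4 and 20.96 CPM. These sums rest on few genes and do not show such cells. Of the fibroblast markers only COL1A1, THY1, PDGFRB and TWIST1 had enough reads to be tested, with TWIST1 at no more than 0.444 CPM as a group mean. Of the trophoblast and amnion markers only GABRP and ISL1 had, with ISL1 at no more than 0.656 CPM. The part of these markers in the ZIC2 level was not tested. Without this library ZIC2 was also higher in WT at 3 h than at 0 h (0.56, adjusted p = 3.70e-05, limma) and at 6 h than at 0 h (0.49, adjusted p = 0.000140). The difference between the KO and WT responses then passed at 3 h (-0.72, adjusted p = 0.000286), 6 h (-0.42, adjusted p = 0.0206) and 48 h (-0.54, adjusted p = 0.00345).

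At 3 and 6 h none of the 7 genes was called between KO and WT by limma, edgeR or DESeq2 (which gave PAX6 no adjusted p at 3 h), and none had an unadjusted p under 0.05 in limma, where 2.78% of all genes were called at 3 h and 2.45% at 6 h. The largest of these differences in size were SOX3 at 3 h (0.35 ± 0.17, adjusted p = 0.331, limma) and POU3F1 at 6 h (-0.35 ± 0.17, adjusted p = 0.499, limma). SOX3 had 29.6, 32.6 and 32.7 CPM in KO cells and 24.1, 26.1 and 24.4 CPM in WT cells at 3 h, without overlap. POU3F1 had 3.16, 3.00 and 2.98 CPM in KO cells and 3.88, 4.18 and 3.85 CPM in WT cells at 6 h, also without overlap. When only KO and WT at 6 h were fitted, POU3F1 (-0.37, adjusted p = 0.0297, limma) and ZIC2 (0.18, adjusted p = 0.0129, limma) passed at 6 h, and ZIC2 passed there also without the 3 libraries that stood apart (0.20, adjusted p = 0.0111). OTX2 passed at 3 h without KO 3 h library 2 (-0.47, adjusted p = 0.0392, limma).

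**Figure D2:**
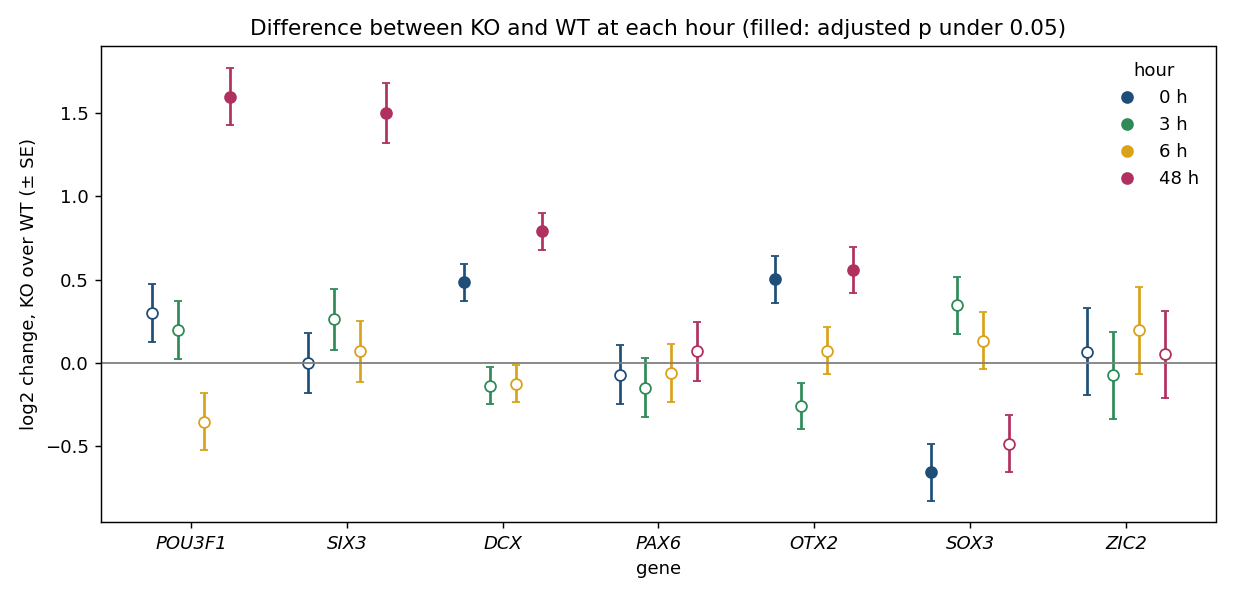
Log2 change of KO over WT (y axis, ± SE from limma) for each gene (x axis) at 0, 3, 6 and 48 h (colours); filled points passed an adjusted p under 0.05. The calls are DCX, OTX2 and SOX3 at 0 h and POU3F1, SIX3, DCX and OTX2 at 48 h, and none lies at 3 or 6 h.

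Within each genotype the 7 genes took 4 courses. DCX and OTX2 dipped at 3 and 6 h and were high again at 48 h, SOX3 and PAX6 peaked at 3 h and were below their 0 h level or near 0 at 48 h, and POU3F1 fell. SIX3 and ZIC2 were raised at 48 h only. Most tested genes moved during induction: 65.7% were called at 3 h against 0 h in KO and 55.7% in WT, 68.5% in KO and 62.1% in WT at 6 h, and 52.8% in KO and 53.3% in WT at 48 h. Of the 7 genes, 5 were called at 3 h and at 6 h in both genotypes, and 6 in KO and 5 in WT at 48 h. With so many genes called, these counts say little about the 7 in particular, and the comparisons of one genotype share its 0 h libraries.

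SOX3 had the largest early change. It averaged 4.28 ± 0.699 CPM at 0 h, 31.6 ± 1.75 at 3 h, 12.7 ± 0.865 at 6 h and 1.82 ± 0.284 at 48 h in KO (SD, n = 3 at each hour). In WT it averaged 7.24 ± 1.78, 24.9 ± 1.04, 11.6 ± 0.962 and 2.72 ± 0.671 CPM at the same hours. The 3 h value was above the 0 h value by 7.39-fold in KO (log2 change 2.88 ± 0.17, adjusted p = 1.77e-12, limma) and by 3.44-fold in WT (1.87 ± 0.17, adjusted p = 4.37e-09, limma). The step at 3 h was thus larger in KO than in WT by 1.00 ± 0.24 on the log2 scale (adjusted p = 0.00990, limma), a difference that also holds the lower 0 h level of KO. HES5, a neural progenitor marker and Notch target, was at 3.51 CPM in KO cells and 2.14 CPM in WT cells at 3 h. Before induction it was at 0 CPM in KO cells and 0.0174 CPM in WT cells. FABP7, the other tested marker of that list, went the other way at 3 h against 0 h. Its log2 change was -1.25 ± 0.21 in KO (adjusted p = 1.66e-05, limma) and -0.63 ± 0.21 in WT (adjusted p = 0.0133, limma). The part of these markers in the SOX3 level was not tested.

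PAX6 peaked at the same hour at a far lower level. Its group means reached 0.222 CPM in KO cells and 0.265 CPM in WT cells at 3 h and 0.192 CPM in KO cells and 0.207 CPM in WT cells at 6 h. The 3 h change was called in KO (0.69 ± 0.18, adjusted p = 0.00143, limma) and in WT (0.77 ± 0.18, adjusted p = 0.000713, limma), the WT call being lost with array weights (0.0605). PAX6 reached the filter's 10 reads only in libraries at 3 and 6 h, so it entered the test through the hours at which it was high. These calls describe its values and are not independent support. No PAX6 library held more than 14 reads, and ELP4, a gene that overlaps PAX6 on the opposite strand, was at 6.63 to 22.4 CPM as a group mean. Whether reads were counted by strand is unknown. The ELP4 mean was lower at 3 and 6 h (6.63 to 11.2 CPM) than at 0 and 48 h (21.4 to 22.4 CPM). Such means do not show which reads fall where ELP4 overlaps PAX6. The part of ELP4 reads in the PAX6 level was not tested.

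OTX2 fell within 6 h and then passed its starting level. It averaged 46.8 ± 2.61 CPM at 0 h, 20.01 ± 5.33 at 3 h, 8.90 ± 0.639 at 6 h and 168.1 ± 12.2 at 48 h in KO. In WT it averaged 34.4 ± 4.34, 23.6 ± 2.66, 8.499 ± 0.957 and 115.9 ± 12.9 CPM. The 48 h level was above the 6 h level by 18.9-fold in KO (4.06 ± 0.14, adjusted p = 7.17e-17, limma) and by 13.6-fold in WT (3.58 ± 0.14, adjusted p = 7.64e-16, limma). The early fall in WT at 3 h was small (-0.43 ± 0.14, adjusted p = 0.0110, limma) and was lost without WT 0 h library 3 (0.0563), without WT 3 h library 1 (0.0718) and without the filter on low counts (0.0527). Definitive endoderm markers were also high at 48 h, where 5 of 5 were at 1 CPM or more in both genotypes. Their summed level, most of it CER1, was 2593 to 2995 CPM in KO and 2213 to 2615 CPM in WT, against 2.57 to 3.09 CPM in KO and 1.19 to 1.67 CPM in WT at 0 h. At 3 and 6 h, when OTX2 fell, CER1 was above its 0 h level in WT (5.03 and 4.25 on the log2 scale) and CXCR4 below it (-0.80 and -1.01). In WT, GATA6 passed as higher at 3 h only (0.86), and SOX17 and FOXA2 passed at neither hour. In KO, CER1 and GATA6 (1.09 and 0.58) were higher at both hours and CXCR4 was lower at both. FOXA2 in KO was higher at 3 h only (0.43), and SOX17 passed at neither hour. Between KO and WT at 48 h, FOXA2 (1.31 ± 0.16, adjusted p = 3.53e-06, limma) and CXCR4 (2.02 ± 0.19, adjusted p = 1.29e-07, limma) were higher in KO, and SOX17, CER1 and GATA6 did not pass. The part of these markers in the OTX2 level was not tested.

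DCX followed the same dip. It averaged 33.6 ± 5.78 CPM at 0 h, 13.9 ± 1.00 at 3 h, 7.80 ± 0.785 at 6 h and 44.8 ± 1.22 at 48 h in KO, and 24.7 ± 2.76, 15.4 ± 0.357, 8.55 ± 0.451 and 26.2 ± 2.74 CPM in WT. At 48 h against 0 h it was called in KO (0.37 ± 0.11, adjusted p = 0.00757, limma), a call lost without KO 0 h library 3 (adjusted p = 0.0733), and not in WT (0.07 ± 0.11, adjusted p = 0.643). The difference between those responses did not pass (0.31 ± 0.16, adjusted p = 0.269, limma).

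POU3F1 fell in both genotypes and parted late. It averaged 9.14 ± 0.745 CPM at 0 h, 4.92 ± 1.42 at 3 h, 3.05 ± 0.103 at 6 h and 3.40 ± 0.190 at 48 h in KO, and 7.74 ± 1.48, 4.16 ± 0.234, 3.97 ± 0.183 and 0.969 ± 0.222 CPM in WT. Between 6 and 48 h it dropped further in WT (-1.94 ± 0.17, adjusted p = 1.57e-09, limma), where 63.8% of all genes were called. In KO the same step was 0.01 ± 0.17 (adjusted p = 0.953, limma), where 62.8% of all genes were called and POU3F1 was the 1 of the 7 genes not called. In WT, 7 of 7 were called over this step.

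SIX3 and ZIC2 stayed level early and were higher at 48 h. SIX3 held 0 reads in every library at 0 h, so that its 48 h level was at least 17.5-fold higher in KO and at least 4.04-fold higher in WT against a floor of 3 reads per library. It had 9 reads in the KO libraries together and 2 in the WT libraries together at 3 h, a KO change not called by limma (0.35 ± 0.18, adjusted p = 0.0981) and called by edgeR (0.0114) and DESeq2 (0.00728). ZIC2 averaged 67.5 ± 1.55 CPM at 0 h, 59.4 ± 3.37 at 3 h, 66.8 ± 0.0610 at 6 h and 175.7 ± 8.72 at 48 h in KO. In WT the mean was 79.7 ± 60.6 CPM at 0 h, with the library that stands out, and 62.7 ± 2.65, 58.6 ± 3.03 and 173.2 ± 27.3 CPM at the later hours. The rise at 48 h was called in KO (1.32 ± 0.26, adjusted p = 0.000202, limma) and in WT (1.34 ± 0.26, adjusted p = 0.000170, limma).

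**Figure D3:**
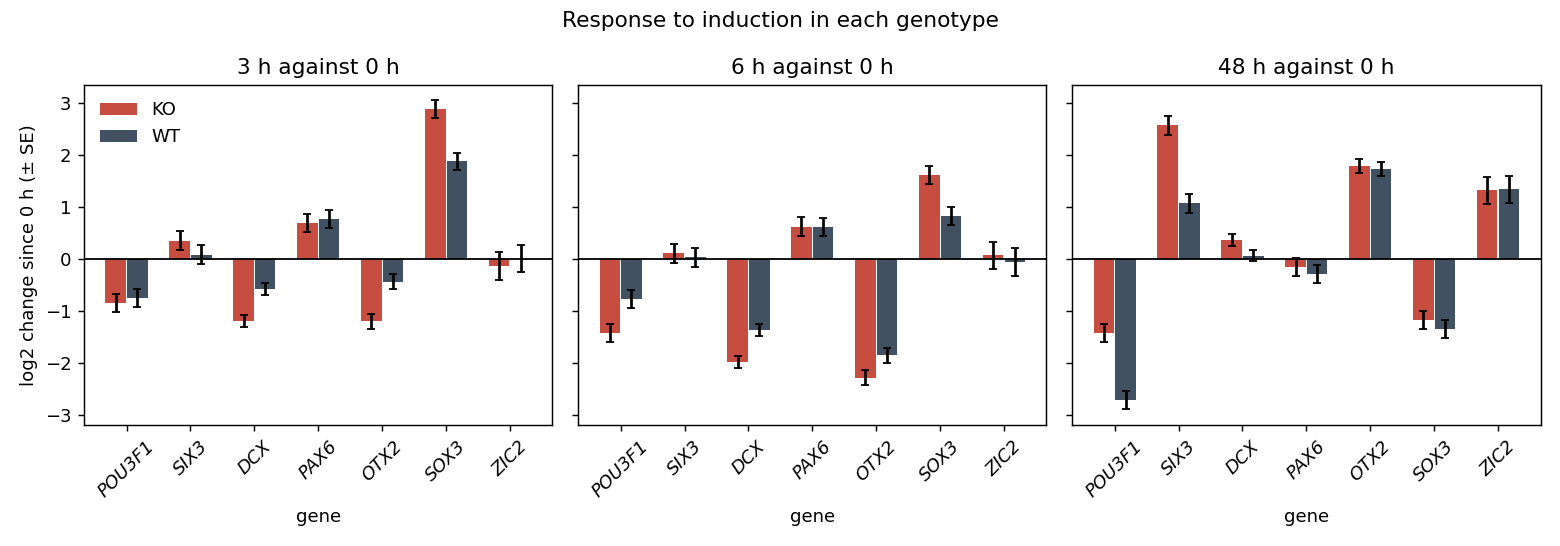
Log2 change since 0 h (y axis, bars from 0, ± SE from limma) for each gene (x axis) at 3, 6 and 48 h (panels) in KO (red, left bar) and WT (dark, right bar). At 48 h the bars part for POU3F1 and SIX3 and lie close for OTX2.

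The response to induction itself differed between KO and WT for 2 or 3 of the 7 genes at each hour. The test of the difference between responses called 9.04% of all genes at 3 h, 8.58% at 6 h and 7.75% at 48 h. It called 3 of the 7 at 3 h (SOX3, DCX and OTX2), 2 at 6 h (SOX3 and DCX) and 2 at 48 h (POU3F1 and SIX3). At 48 h POU3F1 had fallen less in KO than in WT by 1.30 ± 0.25 (adjusted p = 0.00145, limma) and SIX3 was raised more by 1.50 ± 0.26 (adjusted p = 0.000567, limma). The SIX3 difference was not called by edgeR, and DESeq2 gave it no adjusted p. Both 0 h groups of SIX3 are at 0 reads. For OTX2, which differed between KO and WT both at 0 h and at 48 h, the difference in response at 48 h did not pass (0.06 ± 0.20, adjusted p = 0.907, limma).

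Of the 5 early differences in response, SOX3 at 3 h stayed called under every alternative run on it and the other 4 were lost under at least 1. At 3 h the DCX difference (-0.62 ± 0.16, adjusted p = 0.0136, limma) was lost without KO 0 h library 1 (adjusted p = 0.0508) and the OTX2 difference (-0.76 ± 0.20, adjusted p = 0.0157) without WT 3 h library 2 (0.0653), and both when only the 4 groups concerned were fitted (0.0968 and 0.116). At 6 h the SOX3 difference (0.79 ± 0.24, adjusted p = 0.0442) and the DCX difference (-0.61 ± 0.16, adjusted p = 0.0165) were lost without any of several single libraries of either genotype at 0 or 6 h, with adjusted p up to 0.124 for SOX3 and up to 0.0816 for DCX. POU3F1, not called at 6 h, passed without WT 0 h library 1 (-0.70, adjusted p = 0.0349).

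The order of the 8 groups is given with the neighbours whose libraries overlapped, which is a description and not a test. Groups without overlap need not differ by the test. Examples are POU3F1 in KO at 48 h against 6 h (0.01 ± 0.17, adjusted p = 0.953, limma) and DCX between KO and WT at 3 h (-0.14 ± 0.11, adjusted p = 0.570, limma). For POU3F1 the order from high to low was KO 0 h, WT 0 h, KO 3 h, WT 3 h, WT 6 h, KO 48 h, KO 6 h and WT 48 h, and neighbours overlapped for both 0 h groups, WT 0 h with KO 3 h, both 3 h groups and WT 3 h with WT 6 h. For DCX it was KO 48 h, KO 0 h, WT 48 h, WT 0 h, WT 3 h, KO 3 h, WT 6 h and KO 6 h, with overlap of WT 48 h with WT 0 h and of both 6 h groups. For OTX2 it was KO 48 h, WT 48 h, KO 0 h, WT 0 h, WT 3 h, KO 3 h, KO 6 h and WT 6 h, with overlap within 3 h and within 6 h. For SOX3 it was KO 3 h, WT 3 h, KO 6 h, WT 6 h, WT 0 h, KO 0 h, WT 48 h and KO 48 h, with overlap within 6 h. For ZIC2 both 48 h groups overlapped at the top, together with the outlying WT 0 h library.

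Per kilobase of annotated exon, ZIC2 and OTX2 were the most abundant of the 7 genes at 48 h. ZIC2 stood at 53.1 CPM per kb in KO and 52.3 in WT, and OTX2 at 51.4 in KO and 35.4 in WT. DCX stood at 4.39 CPM per kb in KO and 2.57 in WT, and POU3F1 at 1.56 in KO and 0.444 in WT. SOX3 (0.855 in KO and 1.27 in WT), SIX3 (0.529 in KO and 0.118 in WT) and PAX6 (0.00066 in KO and 0 in WT) were lower. SOX3 ranked next after ZIC2 at 3 h, at 14.8 CPM per kb in KO and 11.7 in WT.

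Other genes of the same pathways were taken from lists, which are described by counts and medians beside the median of all tested genes, -0.01 at 48 h between KO and WT. Of 23 tested primed epiblast and pluripotency genes, 16 were higher in KO at 48 h and 0 lower, with a median log2 change of 0.58. SOX2, the SOXB1 partner of OCT4 in stem cells, had 119.5 ± 17.2 CPM in KO cells and 43.0 ± 4.11 CPM in WT cells (1.48 ± 0.11, adjusted p = 3.05e-09, limma). DPPA2, a chromatin-associated pluripotency factor, had 27.2 ± 0.563 CPM in KO cells and 8.94 ± 0.464 CPM in WT cells (1.59 ± 0.09, adjusted p = 3.17e-11, limma). USP44, a deubiquitinase high in stem cells, had 148.6 ± 9.35 CPM in KO cells and 70.9 ± 11.4 CPM in WT cells (1.09 ± 0.09, adjusted p = 5.77e-09, limma). The POU3F1 difference had the direction that 16 of these 23 genes had.

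Of 21 tested neural plate and progenitor genes, 4 were higher and 4 lower in KO at 48 h, with a median of 0.03. Higher were SOX2, SOX21, CRABP1 and HESX1, a homeodomain repressor of the anterior neural plate and epiblast, at 2.95 ± 0.322 CPM in KO cells and 1.42 ± 0.110 CPM in WT cells (0.95 ± 0.18, adjusted p = 0.000901, limma). Lower were ZIC5, CDH2, GBX2 and IRX3, an Iroquois factor of posterior neural plate and mesoderm, at 3.43 ± 0.332 CPM in KO cells and 7.87 ± 1.33 CPM in WT cells (-1.11 ± 0.25, adjusted p = 0.00420, limma). The list as a whole was thus split where 4 of the 7 described genes were called higher. SIX6, the closest relative of SIX3, was at 0 CPM in both genotypes at 48 h, and at 3 h averaged 0.712 CPM in KO cells and 0.127 CPM in WT cells (1.36 ± 0.14, adjusted p = 5.42e-07, limma).

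Over the induction itself the same lists are counted beside 52.8% of all genes called in KO and 53.3% in WT at 48 h against 0 h. Of the 23 epiblast genes, 1 was higher and 14 were lower at 48 h than at 0 h in KO (median -0.65), and 0 were higher and 18 lower in WT (median -0.93). Of the 21 neural plate genes, 7 were higher and 6 lower in KO (median 0.04), and 6 were higher and 5 lower in WT (median -0.02), near the share of all genes. Among them CDH2 (N-cadherin, used by neural plate and mesoderm alike) was higher in KO (3.26 ± 0.19) and in WT (3.24 ± 0.19), and MSI1, an RNA-binding protein of neural progenitors, was higher in KO (2.01 ± 0.24, adjusted p = 3.09e-07, limma). SOX2 was lower at 48 h than at 0 h in KO (-1.52 ± 0.11) and in WT (-3.08 ± 0.11).

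Of 16 tested committed neuron genes, 4 were higher and 2 lower in KO at 48 h, with a median of 0.50. The neurofilament gene NEFM had 47.8 ± 4.04 CPM in KO cells and 22.3 ± 1.29 CPM in WT cells (1.11 ± 0.09, adjusted p = 4.53e-09, limma), and INA, another intermediate filament gene, had 33.8 ± 0.230 CPM in KO cells and 19.4 ± 3.48 CPM in WT cells (0.82 ± 0.09, adjusted p = 6.36e-07, limma). With SYP (0.86 ± 0.24, adjusted p = 0.0204, limma) they had the smallest adjusted p of the list at 5 CPM or more, and the 2 lower genes were not among these. Summed neuron markers, much of them NEFM and INA, were 116.6 to 125.9 CPM in KO and 66.6 to 89.6 CPM in WT at 48 h. They were higher still at 0 h, at 196.7 to 208.5 CPM in KO and 134.4 to 180.4 CPM in WT. TUBB3, a tubulin of neurons, was at 1.34 CPM in KO cells and 1.41 CPM in WT cells at 48 h. Whether any neurons were present, and their part in the DCX level, was not tested.

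Most induced mesoderm genes were lower in KO. Of 12 induced mesoderm genes, 11 were lower in KO at 48 h and 0 higher, with a median of -1.89, and TBXT (brachyury) had 57.002 ± 3.92 CPM in KO cells and 245.6 ± 21.7 CPM in WT cells (-2.08 ± 0.14, adjusted p = 3.83e-10, limma). Summed mesoderm markers were 546.4 to 626.7 CPM in KO and 912.3 to 1125 CPM in WT. Of 9 WNT feedback targets, 5 were lower and 0 higher, with a median of -0.63. Of 8 tested neural crest genes, 1 was higher (FOXD3, also an epiblast gene) and 4 were lower, with a median of -0.57.

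**Figure D4:**
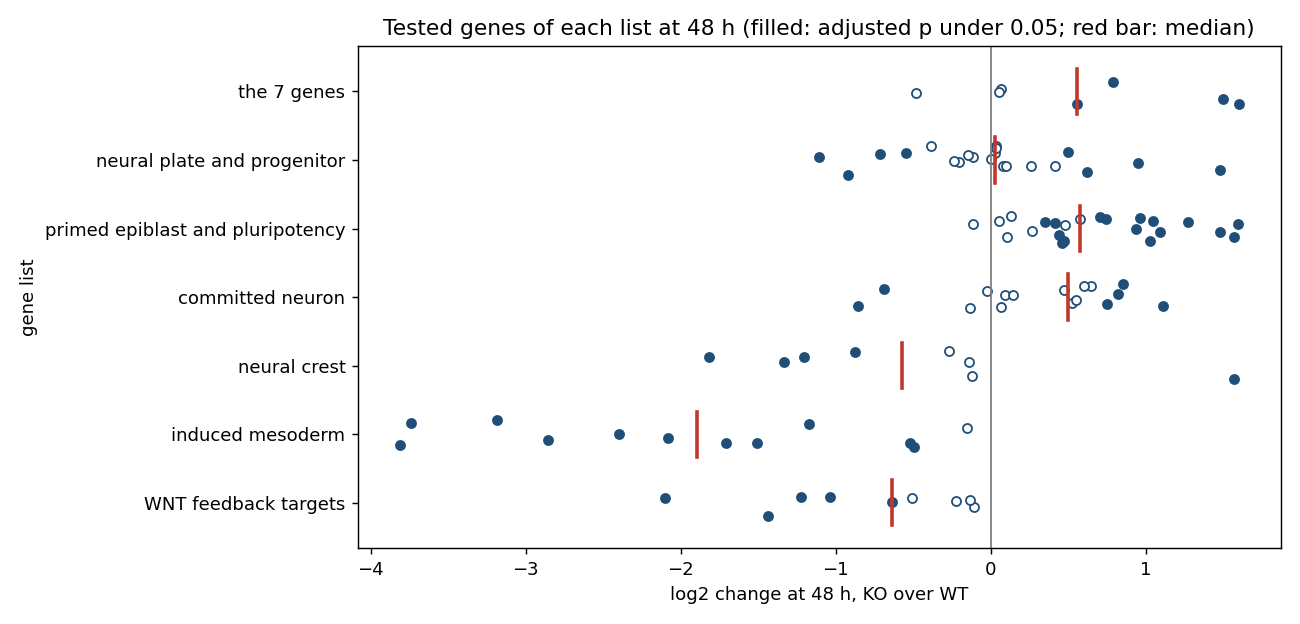
Log2 change of KO over WT at 48 h (x axis, limma) for the tested genes of each list (rows); filled points passed an adjusted p under 0.05 and the red bar is the list median. The epiblast list lies mostly to the right of 0 with a median of 0.58, the neural plate list is split with a median of 0.03, and the mesoderm list lies to the left with a median of -1.89.

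Family relatives of the 7 genes did not move as one group. Of 17 tested, 5 were higher in KO at 48 h (POU3F4, POU5F1, SIX4, SOX2 and DCLK1) and 2 lower (OTX1 and ZIC5), with a median near 0. Among the neighbours whose reads the counting could share, SIX3-AS1 was at no more than 0.053 CPM and OTX2-AS1 at no more than 0.150 CPM as group means, far below SIX3 and OTX2 at 48 h. ZIC5, which lies beside ZIC2, was at 22.7 CPM in KO cells and 34.0 CPM in WT cells at 48 h (-0.55 ± 0.17, adjusted p = 0.0360, limma), while ZIC2 had overlapping libraries.

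Genes with the most similar course were sought among those at 5 CPM or more in a group, by Pearson r of mean log2 values over the 8 groups, a description without a test in which the groups share their cell line and hours. FHL1 (r = 0.984), SOX13 (0.983) and DPYSL3 (0.982) were most like POU3F1, and FOXQ1 (0.996), C17orf51 (0.994) and CHRD (0.982) most like SIX3. CDS2 (0.994), OXSR1 (0.989) and AC008124.1 (0.987) were most like DCX, and PIK3R5 (0.995), FEZ2 (0.991) and CLIP2 (0.990) most like OTX2. GRHL3 (0.995), NAT9 (0.992) and SNX5 (0.991) were most like PAX6, AC012360.3 (0.995) and NID1 (0.985) were among those most like SOX3, and RBKS (0.997), WSCD2 (0.996) and AC004888.1 (0.995) most like ZIC2. The number of genes above r = 0.95 ran from 12 for SIX3 and 45 for POU3F1 to 413 for PAX6, so that the courses of SIX3 and POU3F1 were shared by few genes. Among the 7 themselves PAX6 and SOX3 (0.94) and DCX and OTX2 (0.92) were the most alike.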

How the data were processed

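Expression was measured by stranded mRNA sequencing in 24 libraries, grouped by the genotype and hour in the labels. The deposited gene table holds CPM, scaled by the authors to each library's total, and the second deposited table holds raw counts per transcript. The labels name hg38 and DESeq2, per the submitters' processing notes. The sources used here do not name an aligner or an annotation release. Header names of the gene table stand 1 cell to the left of their values. Read that way, each of the 24 columns was most like the transcript table's column of the same name (0 as the header stands). CPM values were whole multiples of 1 read (100.0% of values under 1000 reads, within 0.1 read), which gave back the reads per library, 29896358 to 50451908. These reads set the precision of low genes, and transcript counts cover 22.1% to 26.4% of them.

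The main test was limma 3.58.1 (R 4.3.3), trend option, on log2(CPM divided by its TMM factor + 0.25), two-sided, with all 8 groups in 1 fit and no covariate. filterByExpr (minimum 10 reads, 15 in total) left 19835 genes. The 15 comparisons were adjusted by Benjamini and Hochberg, each over all tested genes. Fold changes on this scale understate those of low genes. The test was run on simulated data. Alternatives included edgeR 4.0.16 and DESeq2 1.42.0 on the recovered reads, other scalings, pseudocounts and filters, only the groups compared, a replicate block, array weights, summed transcript counts and each library left out. Symbols and coordinates came from GENCODE 29 by unversioned identifier, and promoters from RefSeq (GRCh38.p14). The genes and lists were chosen with earlier results of these data known. Named besides the 7 genes and the targeted gene are up to 3 genes per list with the smallest adjusted p at 48 h and at least 5 CPM in a group, the 3 genes most like each of the 7, and neighbours and relatives, of which some are not reported here. Further genes, such as SOX21, CRABP1, GBX2, SIX6 and TUBB3, were named after their values were seen.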

Additional observations from a re-analysis of the deposited data

Results flagged for a closer look

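The change since 0 h differed between KO and WT, by a test of that difference in limma, in 7 cases. Values are KO change minus WT change on the log2 scale. At 3 h these were SOX3 (1.00), DCX (-0.62) and OTX2 (-0.76). At 6 h they were SOX3 (0.79) and DCX (-0.61). All 5 share the 0 h libraries, in which the same 3 genes differed between KO and WT. At 48 h they were POU3F1 (1.30) and SIX3 (1.50).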

How the results depend on the processing

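Each of the 7 genes was recomputed in 15 comparisons, 105 results in all, of which 58 were called. Of these, 46 stayed called in the same direction under every alternative run on them, 12 were lost under at least 1, and 0 reversed. Of the 47 not called, 13 were called under at least 1 alternative. ZIC2, not called in WT at 6 h against 0 h, changed sign and passed with array weights (0.34), without the 3 libraries that stood apart (0.49, chosen after seeing the data) and without WT 0 h library 1 (0.49), and its difference in response at 6 h turned to -0.42 in both of the last. Over single libraries left out, these ZIC2 values ran from -0.40 to 0.49 and from -0.42 to 0.47.

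The number of the 7 genes called moved as follows. With only the groups compared it was 0 at 0 h and 2 at 6 h for KO against WT, 1 for the difference in response at 3 h and 0 at 6 h. For the difference in response at 48 h it was 1 with edgeR, with DESeq2, which gave SIX3 no adjusted p, and with a filter of 5 CPM, the last leaving out low genes. At 6 h it was 1 without a filter, and 4 without the 3 libraries that stood apart. For KO against WT at 6 h it was 1 with array weights and 1 without those 3 libraries. Summed transcript counts, in which 4 of the genes could be tested and most reads are missing, gave counts of 1 at 0 h and 2 at 48 h for KO against WT, 2 at 3 h and 2 at 6 h in WT, 3 and 2 in KO, 4 for WT and 3 for KO between 6 and 48 h, and 1, 0 and 1 for the difference in response at 3, 6 and 48 h.

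Leaving out 1 library gave 1 to 3 genes at 0 h, 0 to 1 at 3 h, 0 to 0 at 6 h and 4 to 5 at 48 h for KO against WT. For the difference in response it gave 2 to 4 at 3 h, 0 to 4 at 6 h and 2 to 3 at 48 h. The 6 h calls of SOX3 (lost without either of WT 0 h library 2 or KO 0 h library 1, among others) and DCX are the least firm. The cause of these moves was not tested.

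Replicate numbers did not pair the samples: 8 of 84 same-numbered pairs had deviations correlated above 0.1 (range -0.19 to 0.22). With the replicate block, 1 gene was called for the difference in response at 6 h, where SOX3 was lost (adjusted p = 0.0540, limma). Depth limits PAX6 at every hour and SIX3 before 48 h, as these values rest on few reads.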
